A study of Mus musculus with 8 samples.

Results

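Secreted Wnt antagonists are proteins that cells release to hold back Wnt signalling, and 8 of their genes were followed in cultured smooth muscle cells of the mouse aorta: Sfrp1, Sfrp2, Sfrp4, Frzb, Wif1, Dkk1, Dkk2 and Dkk3. They were chosen by name from the 55353 gene rows of the study's count table, and all 8 were present. Filtering out genes with low counts left 7 of the 8, without Dkk1, among 13992 genes tested. The study compared cells lacking E12 with E12 wild-type cells, and cells lacking E47 with E47 wild-type cells. E12 and E47 are splice forms made from the Tcf3 gene, and both belong to the E proteins, transcription factors that bind E-box sequences in DNA.

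Each of the 4 genotypes (E12 KO, E12 WT, E47 KO and E47 WT) had 2 polyA-enriched, unstranded mRNA libraries from separate RNA extractions, 8 in all. The cells were primary, had been stored frozen and were revived in culture dishes before lysis. The sources used here do not give the knockout alleles, the mouse strain, or the age and number of animals. With nothing in the labels to show more than 1 population of cells per genotype, p-values measure only how much RNA extractions varied, possibly for technical reasons. Loss of an isoform cannot be told apart from other differences between the populations. Tcf3 was at 145 and 143 CPM in E12 KO, against 109 and 107 CPM in E12 WT, and at 128 and 128 CPM in E47 KO, against 94.5 and 93.7 CPM in E47 WT. A count over the whole gene does not separate the splice forms, so it checks neither knockout. Libraries held 13909230 to 27517374 counts. Levels are CPM (a gene's counts scaled to a common library size) after TMM scaling, a correction for differing RNA composition, and intervals or limits on low counts cover counting error only. A gene was called when its p-value from edgeR's quasi-likelihood test, adjusted by the Benjamini-Hochberg method over all 13992 genes, was under 0.05. With 2 libraries per genotype, whether the libraries of different groups overlapped is a description and not a test. The share of all genes without such overlap is not given here.

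Wnt proteins signal by binding Frizzled receptors together with the co-receptors LRP5 and LRP6, which stabilises beta-catenin and lets it act on target genes. The secreted Frizzled-related proteins, Sfrp1, Sfrp2, Sfrp4 and Frzb (also called Sfrp3), carry a cysteine-rich domain like that of Frizzled and bind Wnt proteins outside the cell, as does Wif1 through a different domain. Dkk1 and Dkk2 instead bind LRP5 and LRP6, whereas Dkk3 is a divergent member of the Dickkopf family whose part in Wnt signalling is less settled. In the vessel wall, Wnt signalling is known as one of the pathways that bear on smooth muscle growth and matrix.

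Because E proteins bind the E-box CANNTG, the 250 bases before the RefSeq start site of these genes (build GRCm38.p6) were searched for it on both strands, which for this palindromic pattern give the same matches. RefSeq promoter entries were matched for 5 of the 8 genes: Sfrp2, Frzb, Wif1, Dkk1 and Dkk2. E-boxes were found in 2 of them, Frzb and Wif1, while 66.2% of 32851 mouse promoter windows of the same length held at least 1. Part of some windows lay within exons of the gene itself in GENCODE M21. This was 229 of the 250 bases for Frzb, 169 for Dkk1, 44 for Wif1 and 0 for Sfrp2 and Dkk2. The E-boxes are shown in capitals within their flanks. Frzb had CAGCTG, present in 13.0% of windows, starting 17 bases before the RefSeq start (chr2:80447397-80447425, minus strand), where GENCODE M21 already places the first exon of the gene. Wif1 had CACGTG, present in 6.02% of windows, 210 bases before its start (chr10:121033782-121033811, plus strand), and CACCTG, which with its complement CAGGTG is present in 17.2%, 123 bases before (chr10:121033869-121033898, plus strand).
Frzb CAGCTG: ggtgggaaggcgCAGCTGcgagccaaggc
Wif1 CACGTG: cccggccatccaCACGTGtctcttcgggcg
Wif1 CACCTG: cccgttttcattCACCTGgcgcaggcgagc
The upstream stretch of Sfrp2, the gene with the highest level per kilobase of exon of the 8 in all 8 libraries, is given whole because it held no E-box (chr3:83766071-83766320, plus strand).
Sfrp2: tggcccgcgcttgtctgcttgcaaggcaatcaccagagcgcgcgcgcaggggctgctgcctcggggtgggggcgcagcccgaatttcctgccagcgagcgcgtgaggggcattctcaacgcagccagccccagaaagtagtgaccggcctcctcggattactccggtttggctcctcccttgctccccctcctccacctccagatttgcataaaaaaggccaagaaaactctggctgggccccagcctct
A match is a run of letters and not a measured binding site.

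The cells carried smooth muscle markers at uneven levels, and the E47 wild-type libraries stood apart. Acta2, smooth muscle actin, ran from 1626 to 3693 CPM over all libraries. Myh11, smooth muscle myosin, was at 2.03 and 2.82 CPM in E12 KO, 6.06 and 8.82 CPM in E12 WT, 7.43 and 6.42 CPM in E47 KO, and 97.0 and 99.5 CPM in E47 WT. Myocd, the smooth muscle coactivator myocardin, had another order, at 1.21 and 2.10 CPM in E12 KO, 10.3 and 12.3 CPM in E12 WT, 12.8 and 11.5 CPM in E47 KO, and 4.73 and 5.07 CPM in E47 WT. The 6 endothelial markers summed to 4.54 to 5.11 CPM in E12 KO, 7.55 to 9.12 CPM in E12 WT, 3.21 to 6.13 CPM in E47 KO, and 450 to 472 CPM in E47 WT. Pecam1 alone was at 211 and 194 CPM in E47 WT. Kdr, another of the 6, did not share this and was at 3.28 and 3.36 CPM in E12 KO, 5.17 and 2.84 CPM in E12 WT, 1.14 and 0.468 CPM in E47 KO, and 2.15 and 2.65 CPM in E47 WT. The 6 mesothelial markers ran the other way, at 871 to 891 CPM in E12 KO, 1473 to 1583 CPM in E12 WT, 397 to 411 CPM in E47 KO, and 94.2 to 99.6 CPM in E47 WT, where Wt1 was at 0. In such bulk samples, fewer cells of a type and less RNA per cell cannot be told apart.

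Most of the antagonist transcript came from Sfrp2 in 3 of the 4 genotypes. Per kilobase of merged exon, the 8 genes together reached 142 and 136 CPM per kb in E12 KO, against 175 and 172 CPM per kb in E12 WT. They reached 432 and 511 CPM per kb in E47 KO, against 1618 and 1482 CPM per kb in E47 WT. The sum was thus lower in both knockouts than in their wild types, and it was higher in both E47 genotypes than in both E12 genotypes. No test was made on these sums.

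On the same scale, Sfrp2 made up 85.4% and 84.5% of the sum in E12 KO, against 46.5% and 48.2% in E12 WT. It made up 82.3% and 84.5% in E47 KO, against 77.9% and 76.4% in E47 WT. Sfrp4 held 13.2% and 14.2% in E12 KO, against 43.2% and 41.3% in E12 WT, so the E12 wild type was the genotype in which these 2 genes shared most of the sum nearly evenly. In E47 WT, Sfrp1 held 9.21% and 10.2%, and Frzb held 11.0% and 11.3%. In every library, each of the other 7 genes taken singly stood below Sfrp2.

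**Figure D1:**
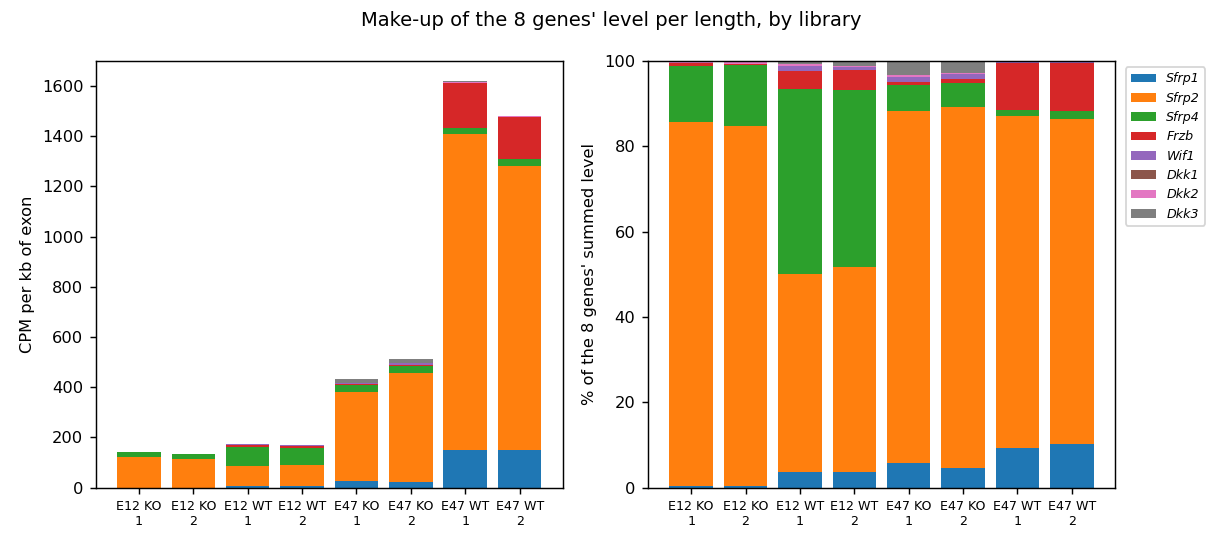
Level of the 8 genes per library, in CPM per kilobase of merged exon (left) and as percent of their sum (right), stacked by gene. The E47 WT bars, at 1618 and 1482 CPM per kb, stand above all others, and Sfrp4 takes over 40% in the E12 WT bars alone.

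In the E12 knockout, 5 of the 8 antagonist genes fell (Sfrp1, Sfrp4, Frzb, Wif1 and Dkk3), Sfrp2 rose, Dkk2 was not called and Dkk1 was too low to test. Over all tested genes 46.4% were called in this comparison, 24.5% as lower and 21.9% as higher. The median log2 fold change of the 7 tested antagonist genes was -3.30, against -0.01 over all tested genes. In the E47 knockout the genes divided, with Sfrp1, Sfrp2 and Frzb lower, Wif1, Dkk2 and Dkk3 higher, and Sfrp4 not called. There 55.2% of all tested genes were called, 27.5% lower and 27.7% higher, and the median was 0.13 for the antagonist genes and 0.01 for all.

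**Figure D2:**
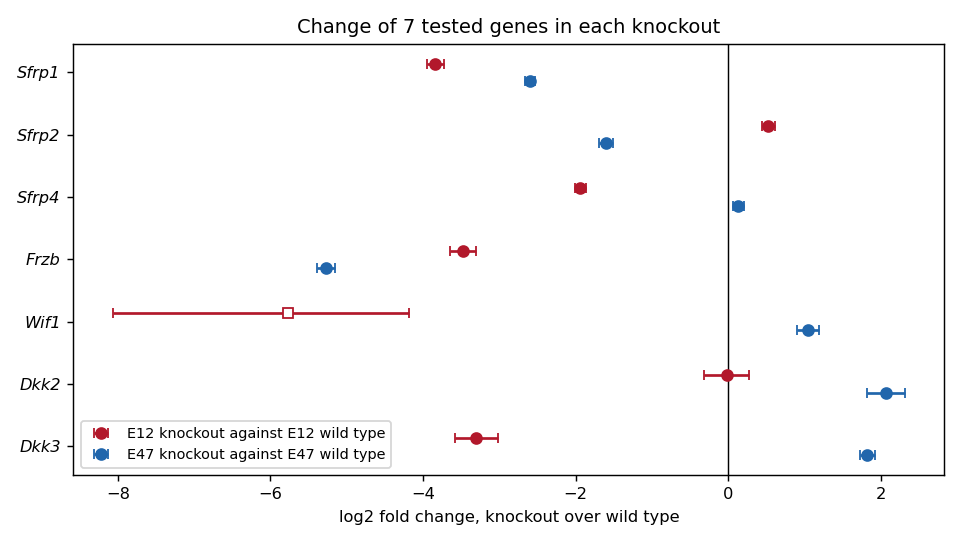
Log2 fold change of the 7 tested genes, E12 knockout over E12 wild type (red) and E47 knockout over E47 wild type (blue), with standard error bars; the open square is the ratio of counts for Wif1 in E12, where the knockout had 3 counts, with its 95% counting interval. Sfrp1 and Frzb lie left of 0 in both comparisons, and Wif1 and Dkk3 lie on opposite sides.

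Sfrp1 and Frzb were the genes of the family that fell in both knockouts. Sfrp1 (chromosome 8, 23411502 to 23449632, 3 merged exons) was at 1.88 and 1.98 CPM in E12 KO, against 27.9 and 27.4 CPM in E12 WT. The log2 fold change was -3.84 (SE 0.115, adjusted p = 3.3e-12), a 14.3-fold lower level. In the E47 cells Sfrp1 was at 111 and 105 CPM in E47 KO, against 651 and 658 CPM in E47 WT (-2.60, SE 0.0666, adjusted p = 2.4e-13). Libraries of the same genotype lay close together.

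Frzb (chromosome 2, 80411970 to 80447625, minus strand, 6 merged exons) was at 2.75 and 1.68 CPM in E12 KO, against 24.9 and 25.8 CPM in E12 WT. Its log2 fold change was -3.48 (SE 0.167, adjusted p = 3.7e-10). In the E47 cells it was at 12.7 and 16.4 CPM in E47 KO, against 573 and 542 CPM in E47 WT, a log2 fold change of -5.27 (SE 0.118, adjusted p = 7.4e-14). That 38.7-fold difference was the widest of any of the 7 genes in the E47 comparison. In the E47 comparison, the fall of Sfrp1 and Frzb went with that of the 6 endothelial markers, of which 6 of 6 were lower in E47 KO (summed level 3.21 to 6.13 CPM in E47 KO, against 450 to 472 CPM in E47 WT). It also went with 7 of 8 smooth muscle markers, the other being Myocd, which was higher in E47 KO (log2 fold change 1.30, SE 0.163), with the 8 summing to 2373 to 2412 CPM in E47 KO, against 4379 to 4626 CPM in E47 WT, and the part of either list in the result was not tested. In the E12 comparison 2 of the 6 endothelial markers fell and 4 were not called. Of the 5 tested chondrocyte markers, 5 were lower in the E12 comparison and 3 in the E47 comparison, and the part of this list was not tested either. Over all tested genes, 24.5% were called lower in the E12 comparison and 27.5% in the E47 comparison.

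Sfrp2 (chromosome 3, 83766321 to 83774316, 5 merged exons) was the gene whose direction differed within the Frizzled-related group. It was at 261 and 247 CPM in E12 KO, against 175 and 178 CPM in E12 WT. This 1.44-fold higher level (log2 fold change 0.53, SE 0.0887, adjusted p = 2.0e-04) was the only rise among the antagonist genes in the E12 knockout. In the E47 cells Sfrp2 was at 766 and 929 CPM in E47 KO, against 2712 and 2437 CPM in E47 WT (-1.60, SE 0.0882, adjusted p = 9.6e-10). Both E47 KO libraries stayed below both E47 WT libraries, and both E12 KO libraries stayed above both E12 WT libraries. Over 16.1% of its exon length Sfrp2 overlaps Gm26771 on the opposite strand, and these libraries do not keep strand, but Gm26771 itself had 0 to 7 counts per library.

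Sfrp4 (chromosome 13, 19623104 to 19632994, 6 merged exons) was highest in E12 WT. It was at 78.6 and 80.8 CPM in E12 KO, against 316 and 297 CPM in E12 WT, a log2 fold change of -1.94 (SE 0.0709, adjusted p = 1.9e-11). In the E47 cells the values were 110 and 119 CPM in E47 KO, against 102 and 106 CPM in E47 WT (0.13, SE 0.0698, adjusted p = 0.12). The E47 libraries therefore did not overlap, but the difference did not pass the test.

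Wif1, which binds Wnt proteins directly, was close to the limit of detection in the E12 knockout. On chromosome 10 (121033960 to 121100650, 10 merged exons), it had 2 and 1 counts in E12 KO (0.0965 and 0.0601 CPM), against 4.98 and 3.66 CPM in E12 WT. The ratio of counts, scaled for library size, was 54.4-fold lower in the knockout (95% exact counting interval 18.2 to 268, edgeR adjusted p = 5.4e-08). In the E47 cells Wif1 moved the other way, at 12.3 and 13.5 CPM in E47 KO, against 6.59 and 5.97 CPM in E47 WT (log2 fold change 1.05, SE 0.145, adjusted p = 2.3e-05). Its promoter window is the one shown above with CACGTG and CACCTG.

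Dkk3 followed the same directions as Wif1. The gene (chromosome 7, 112116017 to 112159057, minus strand, 8 merged exons) was at 0.531 and 0.481 CPM in E12 KO, against 4.21 and 6.05 CPM in E12 WT (log2 fold change -3.30, SE 0.277, adjusted p = 1.8e-07). It was at 46.9 and 49.3 CPM in E47 KO, against 13.97 and 13.3 CPM in E47 WT (1.82, SE 0.103, adjusted p = 1.3e-09). Both E47 groups lay above both E12 groups.

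Of the inhibitors that act on LRP5 and LRP6, Dkk2 was low and Dkk1 was at the limit of detection. Dkk2 (chromosome 3, 132085292 to 132180304, 4 merged exons) was at 1.64 and 2.34 CPM in E12 KO, against 2.23 and 1.72 CPM in E12 WT, where the libraries overlapped (log2 fold change -0.02, SE 0.292, adjusted p = 0.96). It was at 6.24 and 4.68 CPM in E47 KO, against 1.36 and 1.29 CPM in E47 WT (2.06, SE 0.251, adjusted p = 6.7e-06). Dkk1 (chromosome 19, 30545863 to 30549665, minus strand, 4 merged exons) had 2 counts in each E47 WT library (0.143 and 0.0780 CPM). It had 0 counts in the other 6 libraries, which allows levels of up to 0.145 and 0.180 CPM in E12 KO, 0.191 and 0.224 CPM in E12 WT, and 0.156 and 0.201 CPM in E47 KO. No difference in Dkk1 was detectable at this depth.

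**Figure D3:**
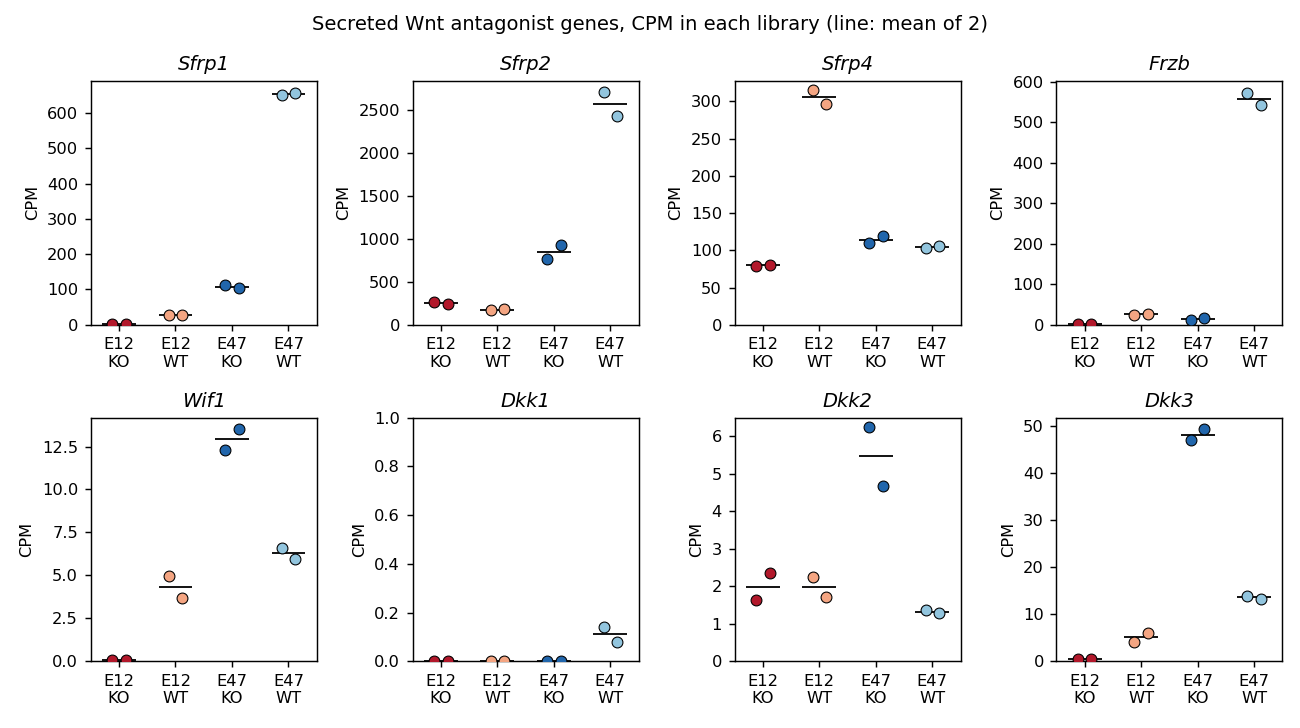
CPM of the 8 genes in each library, with genotypes along the x axis, 1 point per library and a line at the mean of 2; each panel has its own linear y axis from 0. Sfrp1, Sfrp2 and Frzb are highest in E47 WT, Sfrp4 in E12 WT, and Wif1, Dkk2 and Dkk3 in E47 KO.

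Other markers moved with the E12 difference as well. Over all tested genes, 24.5% were called lower and 21.9% higher there, and 27.5% lower and 27.7% higher in the E47 comparison. Of the 6 chondrocyte markers, 5 were tested and 5 were lower, with a summed level of 50.1 to 52.3 CPM in E12 KO, against 290 to 335 CPM in E12 WT, and Hapln1 was at 0 in both. Of the 6 mesothelial markers 5 were lower and 1 was higher. Of the 6 adventitial fibroblast markers 4 were higher and 1 was lower (196 to 218 CPM in E12 KO, against 164 to 176 CPM in E12 WT). Of the 8 smooth muscle markers 3 were higher and 4 lower (1810 to 1838 CPM in E12 KO, against 2107 to 2164 CPM in E12 WT). Most of the smooth muscle sum was Acta2 in every library (1626 and 1650 CPM in E12 KO, against 1929 and 1978 CPM in E12 WT). Exons of Tagln, another of the 8, overlap genes on the opposite strand over 67.9% of their length. In the E47 comparison, 6 of 6 mesothelial and 4 of 6 adventitial fibroblast markers were higher and 1 fibroblast marker was lower, while 3 of the 5 tested chondrocyte markers were lower. The fibroblast list summed to 311 to 360 CPM in E47 KO, against 69.0 to 70.8 CPM in E47 WT. Macrophage markers summed to 12.4 CPM at most in any library, with Ptprc and Adgre1 at 0 in both knockouts. Comp passed the filter on low counts through E12 WT, the endothelial marker Tek through E47 WT and the fibroblast marker Lum mainly through E12 KO. Their direction in comparisons with that group was largely fixed by the filter. The part of these lists in the antagonist results was not tested.

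The change on loss of E12 and the change on loss of E47 differed in size or direction for each of the 7 tested genes, by edgeR's test of the difference, where 48.6% of all tested genes were called, 25.7% as lower and 22.9% as higher. The difference, the E12 change minus the E47 change on the log2 scale, was 2.13 for Sfrp2 (SE 0.125, adjusted p = 2.8e-09), -2.08 for Sfrp4 (SE 0.099, adjusted p = 2.9e-10) and -5.12 for Dkk3 (SE 0.285, adjusted p = 1.6e-09). Sfrp1 and Frzb fell in both knockouts, yet Sfrp1 fell further on the log2 scale with loss of E12 (-1.24, SE 0.144, adjusted p = 5.3e-06) and Frzb with loss of E47 (1.80, SE 0.24, adjusted p = 2.2e-05).

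The wild types also differed from each other. In the E12 wild type against the E47 wild type, 5 of the 7 tested antagonist genes were lower and 1 was higher, where 55.4% of all tested genes were called (27.6% lower and 27.8% higher). The log2 fold change was -4.56 for Sfrp1 (SE 0.0757, adjusted p = 2.1e-15), -3.87 for Sfrp2 (SE 0.0973) and -4.46 for Frzb (SE 0.112). Sfrp4 was the gene that was higher in E12 WT, at 1.55 (SE 0.0697, adjusted p = 5.5e-11). Dkk3 was lower by a smaller margin (-1.42, SE 0.144), Wif1 was marginal at -0.51 (SE 0.177, adjusted p = 0.024), and Dkk2 was not called (0.60, SE 0.313, adjusted p = 0.12). The call of Wif1 ended with DESeq2's Wald test (-0.54, adjusted p = 0.075), without the second E12 WT library (-0.32, adjusted p = 0.21) and without the first E47 WT library (-0.45, adjusted p = 0.087).

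The knockouts differed from each other as well. In the E12 knockout against the E47 knockout, where 52.9% of all tested genes were called (27.0% lower and 25.9% higher), 7 of the 7 tested antagonist genes were lower. The log2 fold change was -5.81 for Sfrp1 (SE 0.103), -1.74 for Sfrp2 (SE 0.0893), -0.52 for Sfrp4 (SE 0.0706), -2.66 for Frzb (SE 0.178), -1.49 for Dkk2 (SE 0.235) and -6.54 for Dkk3 (SE 0.18), with adjusted p between 5.8e-15 for Sfrp1 and 8.3e-05 for Dkk2. Wif1 was lower by a ratio of counts of 160 (95% exact counting interval 54.3 to 778). These comparisons share libraries with the knockout comparisons above.

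Ranked from high to low, Sfrp1 ran E47 WT, E47 KO, E12 WT and E12 KO, and Wif1 and Dkk3 ran E47 KO, E47 WT, E12 WT and E12 KO. Frzb differed from Sfrp1 in that E12 WT stood above E47 KO (E47 KO against E12 WT, log2 fold change -0.82, SE 0.125, adjusted p = 1.1e-04), a comparison in which 38.1% of all tested genes were called, 19.6% lower and 18.6% higher. Sfrp2 differed in that E12 KO stood above E12 WT. Neighbours in the order differed past the test for these 5 genes. For Wif1 the call between E47 WT and E12 WT was marginal (edgeR adjusted p = 0.024) and ended under the other settings given above. For Sfrp4 the neighbours E47 KO and E47 WT did not, and for Dkk2 neither E12 KO and E12 WT nor E12 WT and E47 WT did.

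Over the 8 libraries, the tested genes whose centred log2 CPM lay nearest to each antagonist gene differed from member to member. The measure was the root mean square (RMS) difference, in log2 units, with small values for like patterns. The nearest to Sfrp1 was Cdo1, a cysteine dioxygenase gene (RMS difference 0.593, against a range of 8.36 for Sfrp1), then Pappa (0.618) and Cd200 (0.642). The nearest to Frzb were the transcription factor gene Klf12 (0.565), the adhesion receptor gene Adgrf5 (0.570) and Angptl1 (0.659), with a range of 8.32 for Frzb. For Sfrp2 they were Ust (0.209), a sulfotransferase gene, Ppfia2 (0.2499), which was at 0 in E12 WT, and Col11a1 (0.267), a fibrillar collagen gene.

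Sfrp4 lay nearest to Ip6k3 (0.178), Wdfy1 (0.189) and Hmcn2 (0.194), and Wif1 to Zfp503 (0.319), Nebl (0.363) and Tmem246 (0.481). Dkk2 lay nearest to Phyh (0.273), the homeobox gene Prrx1 (0.278) and Arhgap42 (0.294). Dkk3 lay nearest to Tafa5 (0.411), Col15a1 (0.447) and the forkhead gene Foxd1 (0.457). Among the antagonist genes themselves, the nearest pairs were Wif1 and Dkk3 (0.686), Sfrp4 and Dkk2 (1.07) and Sfrp1 and Frzb (1.25). Klf12, Adgrf5, Angptl1, Tmem246, Tafa5 and Ppfia2 were near the limit of detection in E12 KO, each at a mean of 0.108 CPM or less. So was Wif1 itself, at a mean of 0.0783 CPM there. Distances to any of these genes, that of the Wif1 and Dkk3 pair included, therefore depend on the prior count of 2 used for log2 CPM. With 4 genotypes of 2 libraries each, such distances only describe these libraries.

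Genes in the rest of the Wnt pathway changed in both directions. For all list counts below, 46.4% of all tested genes were called in the E12 comparison (24.5% lower and 21.9% higher). In the E47 comparison 55.2% were called (27.5% lower and 27.7% higher). No list was tested against these shares. Some genes were low in all groups but 1 and passed the filter on low counts through that group. Among them were Axin2 and Wnt7b (E47 KO), Wnt2 (E12 WT), and Sost, Rspo3, Fzd9, Sp5 and Tnfrsf19 (E47 WT). Their direction in comparisons with that group was largely fixed by the filter, and they are included in the counts below. Of 12 other extracellular inhibitors 5 were tested. In the E12 knockout 2 rose and 2 fell. The median log2 fold change there (-0.30, or -0.36 with groups of 3 counts or fewer set to 3) was that of Sost. Sost had 1 count in E12 KO and 1 count in E12 WT, so this median does not describe the list. Igfbp4, an IGF-binding protein gene, was at 197 and 189 CPM in E12 KO, against 46.9 and 47.8 CPM in E12 WT (2.03, SE 0.0775, adjusted p = 3.1e-11). Apcdd1, a membrane inhibitor of Wnt signalling, fell (-1.53, SE 0.132), as did Trabd2b, a protease that inactivates Wnt proteins (-1.20, SE 0.0923). In the E47 knockout 2 rose and 1 fell (median 0.09). Apcdd1 rose there (1.07, SE 0.0989), as did Tpbg (0.79, SE 0.114), whose exons overlap an antisense gene over 23.5% of their length. Tpbg also rose in E12 KO (0.63, SE 0.111). Sost, which encodes sclerostin, an LRP5 and LRP6 inhibitor, fell and was at 0.208 and 0.201 CPM in E47 KO, against 3.01 and 2.50 CPM in E47 WT (-3.68, SE 0.432). Because Sost passed the filter only through E47 WT, this direction was largely fixed in advance.

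Of 19 Wnt ligand genes 10 were tested. In E47 KO 7 rose and 3 were not called (median 1.504), and in E12 KO 1 rose, 4 fell and 5 were not called (median -0.52). The 7 include Wnt7b and the 4 include Wnt2. Each was tested only through the group where it was high, E47 KO for Wnt7b and E12 WT for Wnt2. Wnt4 was at 14.4 and 17.7 CPM in E47 KO, against 0.215 and 0.819 CPM in E47 WT (log2 fold change 4.71, SE 0.258, adjusted p = 9.2e-10), and at 6.17 without the second E47 WT library. Wnt9a rose by 1.59 (SE 0.111) and Wnt16 by 3.26 (SE 0.322). Wnt5a, a ligand known mainly for signalling without beta-catenin, was at 31.3 and 30.3 CPM in E12 KO, against 10.6 and 14.4 CPM in E12 WT (1.32, SE 0.124, adjusted p = 6.4e-07). It also rose in E47 KO, to 14.5 and 13.1 CPM, against 4.58 and 5.58 CPM in E47 WT (1.41, SE 0.152). The E12 and E47 changes of Wnt5a did not differ past edgeR's test of the difference (-0.10, SE 0.199, adjusted p = 0.71). Wnt2b had 2 counts and Wnt2 had 1 count in E12 KO, against 39 and 23 counts in E12 WT. Scaled for library size, Wnt2b was 25.1-fold lower (95% exact counting interval 6.49 to 214) and Wnt2 was 29.6-fold lower (4.80 to 1219), and the call of Wnt2 ended without the first E12 KO library (adjusted p = 0.051).

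The secretion and R-spondin genes help Wnt proteins leave the cell or amplify their signal. Of 6 genes 4 were tested, with 2 lower and 2 not called in E12 KO (median -1.51, or -0.43 with low groups set to 3 counts) and 1 higher and 3 lower in E47 KO (median -0.85). Rspo3, among these 3, passed the filter on low counts only through E47 WT, so its direction was largely fixed in advance. Wls, the carrier of Wnt proteins to the cell surface, fell in both (-0.50, SE 0.0647, in E12 and -0.27, SE 0.064, in E47). Rspo2 also fell in both, to 0.145 and 0.240 CPM in E12 KO, against 1.08 and 1.12 CPM in E12 WT, and to 12.5 and 12.3 CPM in E47 KO, against 37.5 and 39.6 CPM in E47 WT. Porcn, the enzyme that attaches a lipid to Wnt proteins, rose in E47 KO (0.92, SE 0.201, adjusted p = 0.0013).

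Of 23 receptor genes 19 were tested, with 6 lower and 4 higher in E12 KO (median -0.18) and 11 lower and 5 higher in E47 KO (median -0.46). Ptk7, a Wnt co-receptor gene, was lower in both knockouts, at 3.57 and 3.60 CPM in E12 KO, against 29.3 and 29.1 CPM in E12 WT, and at 14.7 and 16.4 CPM in E47 KO, against 84.5 and 82.5 CPM in E47 WT. Fzd4 was at 34.3 and 33.0 CPM in E47 KO, against 362 and 360 CPM in E47 WT (-3.42, SE 0.0804, adjusted p = 9.8e-14), a fall that also went with the endothelial markers. In E12 KO Fzd4 fell by 0.71 (SE 0.0847) and Fzd7 rose by 1.08 (SE 0.0725) on the log2 scale. Fzd5 fell by 1.25 (SE 0.0781) in E47 KO and rose in E12 KO (0.36, SE 0.078). Fzd7 fell in E47 KO (-0.60, SE 0.071).

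All 13 intracellular mediators were tested, with 6 higher and 7 not called in E12 KO (median 0.17) and 1 higher and 6 lower in E47 KO (median -0.18). Csnk1a1, a kinase of the beta-catenin destruction complex, rose by 0.84 (SE 0.0662), Ctnnb1, beta-catenin itself, by 0.39 (SE 0.0639) and Apc, its scaffold, by 0.58 (SE 0.121) in E12 KO. Apc was at 0.35 without the first E12 WT library and 0.84 without the second. In E47 KO Gsk3b fell by 0.75 (SE 0.0929), Tcf7l1 by 0.53 (SE 0.0958) and Dvl3 by 0.45 (SE 0.0835). Apc fell there too (-0.55, SE 0.122).

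Common beta-catenin targets showed no single direction. Of 12 genes 11 were tested, with 2 higher and 4 lower in E12 KO (median -0.67) and 5 higher and 5 lower in E47 KO (median -0.10). Tnfrsf19 had 0 counts in both E12 groups, and Sp5 had 1 count in E12 KO and 0 counts in E12 WT. Neither was measured in the E12 cells, though both enter that median. In the E47 counts, Axin2, Sp5 and Tnfrsf19 were each tested through the group where they were high. Ccnd1, cyclin D1, was at 885 and 946 CPM in E12 KO, against 1723 and 1652 CPM in E12 WT (-0.88, SE 0.0733), and at 843 and 767 CPM in E47 KO, against 390 and 424 CPM in E47 WT (0.98, SE 0.0738). Its exons overlap a gene on the opposite strand over 23.4% of their length. Ccn5 fell in both (-3.25, SE 0.0805, and -0.71, SE 0.0696), Ccn4 fell in E12 KO (-0.67, SE 0.0816), and Myc rose in E47 KO (0.73, SE 0.0791). Myc also rose in E12 KO, by less (0.21, SE 0.0738).

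**Figure D4:**
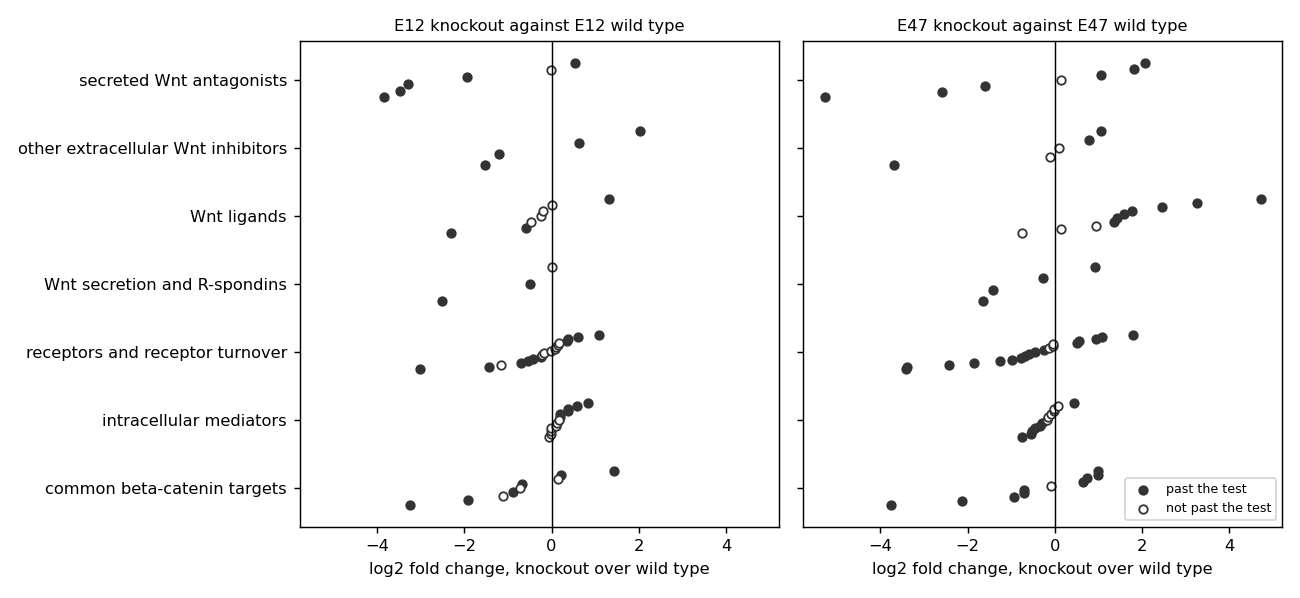
Log2 fold change of tested genes in the antagonist list and 6 other Wnt pathway lists, E12 knockout over E12 wild type (left) and E47 knockout over E47 wild type (right); filled points passed the test, and a gene seen 3 times or less in either group is not drawn. The antagonist genes spread over both sides in E47, where 7 of 10 tested Wnt ligands rose. Wnt7b, among these, passed the filter on low counts only through E47 KO.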

How the data were processed

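The authors' deposited table held whole-number read counts per gene symbol for 8 libraries, not normalized or pooled. The submitters' processing notes name FastQC, HISAT, featureCounts and GRCm38 (mm10) as the build. The sources used here do not give their versions, settings or annotation, or how multiply matching reads were handled. Of 55353 rows, 26 with symbols turned into dates carried 0.153% to 0.198% of counts and stayed in the totals.

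Tests used edgeR 4.0.16 (R 4.3.3). The filter on low counts left 13992 genes, libraries were scaled by TMM, and 1 model of 4 groups was fitted to all 8 libraries (4 residual degrees of freedom, common biological coefficient of variation 0.0598). Standard errors (SE) are the log2 fold change over the square root of the F statistic. The fit was tested on simulated data. Lengths, positions and overlaps came from GENCODE M21 (GRCm38), and promoters from RefSeq (GRCm38.p6).

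The genes were given by name and the lists (6 pathway and 6 marker lists) fixed with earlier results of these data known. Named pathway genes are up to 3 per list and knockout comparison with the lowest p among those called. Genes of like pattern exclude predicted models. Alternatives were DESeq2 1.42.0, its size factors, 2 other filters, fits on 4 libraries, each library left out and, chosen after seeing the data, a fit without both E47 WT libraries. Protein sequences are not used here.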

Additional observations from a re-analysis of the deposited data

Results flagged for a closer look

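For each of the 7 tested antagonist genes, the change on loss of E12 differed from the change on loss of E47 by edgeR's test of the difference (adjusted p, Benjamini-Hochberg over all genes). The values below are the E12 change minus the E47 change on the log2 scale. Sfrp1 was at -1.24 (adjusted p = 5.3e-06) and Frzb at 1.80 (2.2e-05), both lower in either knockout. Sfrp2 was at 2.13 (2.8e-09), higher in E12 KO and lower in E47 KO in both libraries of each. Sfrp4 was at -2.08 (2.9e-10), lower in E12 KO and not called in E47 KO. Dkk2 was at -2.09 (5.0e-04), not called in E12 KO and higher in E47 KO. Dkk3 was at -5.12 (1.6e-09), lower in E12 KO and higher in E47 KO. Wif1 had the same directions as Dkk3 and a fitted difference of -6.69 (1.1e-08), which rests on 3 counts in E12 KO and depends on the prior count of the fit. Over all tested genes, 48.6% were called in this test.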

How the results depend on the processing

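No paired analysis was possible because the labels number the libraries from 1 to 8 and no groups share a number. Counts of called genes stayed within 1.5 times the reported count in all 7 comparisons, at 5256 to 6543 for E12 and 5867 to 8161 for E47. Of 630 values of the 7 antagonist genes under alternative settings, 625 kept their direction and their side of the threshold. The exceptions were 3 for Wif1 between the wild types, given above, and 2 for Dkk2 in the E12 comparison, which was not called and turned to 0.19 (adjusted p = 0.74) without the first E12 WT library and 0.24 (adjusted p = 0.62) without the first E12 KO library, with -0.27 as the lowest value over the libraries left out. Of 471 values of other named genes, 1 lost its call (Wnt2). The order of genotypes was unchanged with DESeq2 size factors for 7 of 7 genes. Without both E47 WT libraries, 6252 genes were called in E12, and Sfrp1 was at -3.84, Sfrp2 at 0.52 and Frzb at -3.48. When 1 library was left out, the lone library of its group was assumed to vary like the other groups. Depth limits Dkk1, and Wif1, Wnt2 and Wnt2b in E12 KO, Axin2 in E47 WT and Ror2 and Sost in both E12 genotypes. In these E12 and E47 WT groups 3 counts or fewer were seen, apart from Dkk1 in E47 WT.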

Other observations

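The following Wnt pathway genes lie outside the rule for named genes and were chosen after their values were seen. Axin2, a feedback inhibitor and common beta-catenin target, had 43 counts in E47 KO (1.30 and 1.20 CPM), against 2 counts in E47 WT, a ratio of 24.9 scaled for library size (95% exact counting interval 6.49 to 212). In that comparison 5 targets of the list were higher, Axin2 among them, and 5 were lower. The lower ones were Tnfrsf19 (log2 fold change -3.76), Sp5 (-2.14), Tcf7 (-0.94), Bambi (-0.72) and Ccn5 (-0.71). Over all tested genes 27.7% were called higher and 27.5% lower. Axin2 passed the filter on low counts through E47 KO, and Tnfrsf19 and Sp5 through E47 WT. Their calls and directions here were thus largely fixed by the filter. Ror2, a Wnt5a receptor gene, was at 1.40 and 1.67 CPM in E47 KO, against 17.8 and 14.5 CPM in E47 WT (log2 fold change -3.38, SE 0.226), and had 1 count in E12 KO and 3 counts in E12 WT.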
